A study of Mus musculus with 11 samples.

Results

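The genes described here are 4 core components of hedgehog signalling, the ligand Shh, the receptor Ptch1, the signal transducer Smo and the transcription factor Gli1, the hedgehog inhibitor Hhip, and 3 genes known from the zona glomerulosa, the outermost zone of the adrenal cortex: Dab2, Agtr1a and Agtr1b. They were taken as every array probe whose RefSeq accession belongs to these genes, which gave 12 probes for 8 genes, out of 41174 probes and 17427 named genes on the array. Dab2, Agtr1a, Hhip and Smo have 2 probes each and the others 1. RNA came from mouse adrenocortical cells that carried enhanced green fluorescent protein (eGFP) and had been sorted by flow cytometry from adrenal glands of embryos at E17.5 to E18.5, and each mouse's RNA was amplified linearly and hybridised to its own single-colour Agilent array. The 4 knockout mice were Star-/- and all male. The 7 wild-type mice were Star+/+, and 3 of them were male and 4 female. All 11 mice share the eGFP reporter, but the labels do not name the promoter that drives it. The steroidogenic acute regulatory protein, the product of Star, delivers cholesterol to the mitochondrial enzyme that starts steroid synthesis.

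Hedgehog ligands bind Patched receptors on a receiving cell, which relieves the inhibition of Smoothened (Smo) and lets Gli transcription factors switch on target genes. Ptch1, Gli1 and Hhip are themselves classic targets, so their transcripts are commonly read as signs that a cell receives the signal. In the mouse adrenal gland, Shh is made by steroidogenic progenitor cells of the outer cortex, while Gli1 and Ptch1 are found mainly in the mesenchymal cells of the overlying capsule. Dab2 and the angiotensin receptors mark the zona glomerulosa, whose cells make aldosterone in response to angiotensin II.

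Promoter sequences, from 250 bases before to 50 bases after the annotated start, are given by RefSeq on GRCm38.p6 for 5 of the 8 genes. The Hhip and Ptch1 promoters are shown because both genes are textbook targets of Gli factors, and the capitals mark the stretch closest to the Gli motif on either strand. Hhip lies at chr8:80057959-80058258 on the minus strand and Ptch1 at chr13:63565686-63565985 on the minus strand.
Hhip promoter: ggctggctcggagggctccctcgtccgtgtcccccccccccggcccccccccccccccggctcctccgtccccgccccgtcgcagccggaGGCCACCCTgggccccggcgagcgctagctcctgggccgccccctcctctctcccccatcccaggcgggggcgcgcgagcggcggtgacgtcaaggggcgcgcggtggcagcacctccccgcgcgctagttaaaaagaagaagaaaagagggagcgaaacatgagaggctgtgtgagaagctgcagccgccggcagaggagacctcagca
Ptch1 promoter: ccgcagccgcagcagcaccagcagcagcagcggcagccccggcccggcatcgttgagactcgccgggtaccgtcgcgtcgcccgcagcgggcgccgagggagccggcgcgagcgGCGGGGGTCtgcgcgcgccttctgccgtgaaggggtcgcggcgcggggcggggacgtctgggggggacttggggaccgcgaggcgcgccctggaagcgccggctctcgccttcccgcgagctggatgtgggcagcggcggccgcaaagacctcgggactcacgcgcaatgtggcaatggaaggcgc
The Gli motif GACCACCCA was searched on both strands and occurred in none of the 6 member promoters, 2 of which belong to Dab2, and in 0.253% of 32851 promoters of the same length. The stretch in capitals in the Hhip promoter matched 7 of its 9 letters, which 58.3% of all promoters reached or exceeded. The best stretch in the Ptch1 promoter, read on the opposite strand, matched 6 letters, which 99.4% of promoters reached or exceeded. Both promoters were rich in CpG, with 30 CpG dinucleotides in Hhip and 47 in Ptch1, against a median of 7 over all promoters. The steroidogenic factor 1 (SF-1) motif CAAGGTCA was found in 0 of the 6 member promoters and in 1.56% of all promoters. These matches describe letters within the windows only.

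The arrays lay on 3 slides, which is the batch known from the files. Wild-type arrays 1 and 2 shared slide 1 with knockout arrays 1 and 2, wild-type array 3 shared slide 2 with knockout arrays 3 and 4, and slide 3 carried wild-type arrays 4 to 7 alone. Levels are log2 processed signals minus the array's 75th percentile, so a level of 0 is a probe as bright as that percentile, and a difference of 1 is a factor of 2 in signal. A level belongs to its own probe and is not set against that of another gene. The 75th percentile ran from 115 in wild-type array 3 to 706 in knockout array 1, and between 19071 and 26416 probes per array were well above background. Wild-type array 3 also resembled the rest least, with a median correlation of 0.877, where knockout array 2 reached 0.936. In the alternative with array weights it received the smallest weight, 0.170. It is the only wild-type array of slide 2, so every difference within slide 2 rests on it. Differences are knockout minus wild-type from limma with slide as a term, so they compare the 4 knockout with the 3 wild-type arrays of slides 1 and 2, while slide 3 adds only to the estimated spread. Star itself was 5.75 ± 1.82 (SD, n = 7) in wild-type and 2.37 ± 0.73 (SD, n = 4) in knockout arrays, a difference of -4.70 ± 0.93 (SE) with a limma adjusted p of 0.0559, just outside the threshold of 0.05. The second Star probe, in a fit over all probes, differed by -5.38 ± 0.91 (SE) with an adjusted p of 0.0367, and its levels did not overlap between genotypes. The level of the first Star probe in the wild-type arrays was 3.21 to 4.95 in arrays 5, 6 and 7, against 5.87 to 7.86 in arrays 1 to 4. In arrays 5 to 7 the mean level of 9 adrenocortical markers was also low, at 1.37 to 2.18 against 3.43 to 4.91 in arrays 1 to 4, and that of 10 chromaffin cell markers was high, at 2.83 to 3.44 against -0.14 to 2.31. The knockout arrays held 1.83 to 3.28 for the adrenocortical list. With 11 arrays, the number of samples limits the precision of every comparison.

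Across the 8 genes, Shh, Agtr1a, Dab2 and Hhip had lower mean levels in the knockout arrays, Smo and Gli1 had fitted differences near 0, and Ptch1 and Agtr1b were too dim to be tested. None of the 6 genes tested passed a limma adjusted p of 0.05, where 0.834% of the 20741 genes and unnamed probes tested did. Shh, Agtr1a and Dab2, 3 of the 6, had an unadjusted p under 0.05, against 18.5% of all genes tested. Agtr1a was the only gene of the 6 whose levels did not overlap between genotypes, against 7.36% of all genes. Fitted differences lay below 0 for 5 of 6 genes, against 57.0% of all genes. Shh entered the test only through its wild-type arrays, so these counts are descriptions. RNA of a sorted population cannot tell fewer cells of a type from less RNA per cell.

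**Figure D1:**
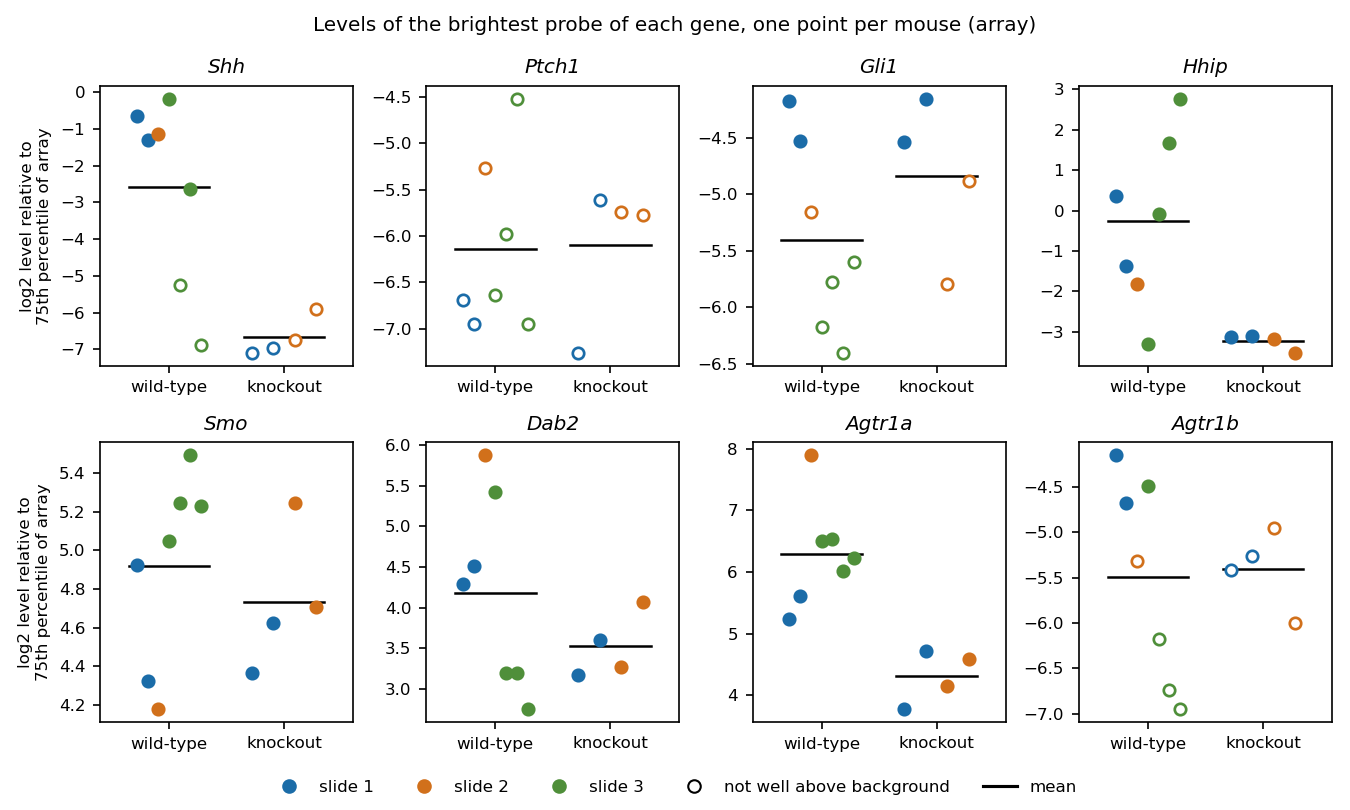
Levels of the brightest probe of each of the 8 genes, as log2 signal relative to the array's 75th percentile, with 1 point per mouse, coloured by slide and hollow where the probe was not well above background; black lines are means. Shh points of the knockout mice are all hollow, between -7.10 and -5.89, and Agtr1a is the gene whose knockout points, 3.78 to 4.72, all lie below the wild-type points.

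Shh, the secreted ligand, was at background in all 4 knockout arrays and well above it in 5 of the 7 wild-type arrays. Its level in the wild-type arrays 1 to 7 was -0.66, -1.30, -1.13, -0.18, -5.26, -2.65 and -6.87, and in the knockout arrays 1 to 4 it was -7.10, -6.97, -6.73 and -5.89. The wild-type arrays thus fell into high values on slides 1 and 2 and in array 4, an intermediate value in array 6, and values near those of the knockout arrays in arrays 5 and 7, so the genotypes overlapped through array 7. Since 0 knockout arrays had the probe above background, its fold change has only a bound. Shh was at least 4.00-fold lower in the knockout arrays when the wild-type mean over 7 arrays, -2.58, is set against the mean of the lowest measurable levels of the knockout arrays, -4.58, and at least 12.2-fold lower when arrays are compared within slides 1 and 2. The fit, in which all knockout values of Shh are signals at background, gave -5.70 ± 1.31 (SE; limma adjusted p 0.0819), with -6.05 within slide 1 and -5.18 within slide 2. These values describe signals and are no estimate of the size of a change, and they shrank to -2.21 with the normexp background correction. Leaving out wild-type array 4, whose slide holds no knockout array, kept the difference and brought the adjusted p to 0.0210, and using slides 1 and 2 alone, an alternative added after seeing the data, brought it to 0.00410. Without wild-type array 3 the adjusted p was 0.547.

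The Shh probe was printed 10 times on each array, which gives a measure of technical error within an array. In the wild-type arrays 51 of 70 Shh spots were well above background, all 10 on each of arrays 1 to 4 and 6, 1 on array 5 and 0 on array 7. In the knockout arrays 0 of 40 spots were well above background. Spot counts here include outlier spots, which do not enter the levels, and the single spot on array 5 was such an outlier. Where the probe was above background, the 10 spots of an array had an SD between 0.03 and 0.10 on the log2 scale.

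The arrays in which Shh was low were also those with low adrenocortical and zona glomerulosa markers. Shh and the mean level of the 15 zona glomerulosa genes tested had a Pearson r of 0.90 over the 11 arrays and of 0.87 over the 7 wild-type arrays. Over the wild-type arrays Shh had an r of 0.77 with the adrenocortical list and of -0.88 with the 15 capsule and stroma markers. Arrays share scaling, the high and low arrays lie in groups, and Shh was at background on 6 of the 11 arrays, so these values are descriptions. Whether the cell content of the sorted samples has a part in the Shh levels was not tested.

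**Figure D2:**
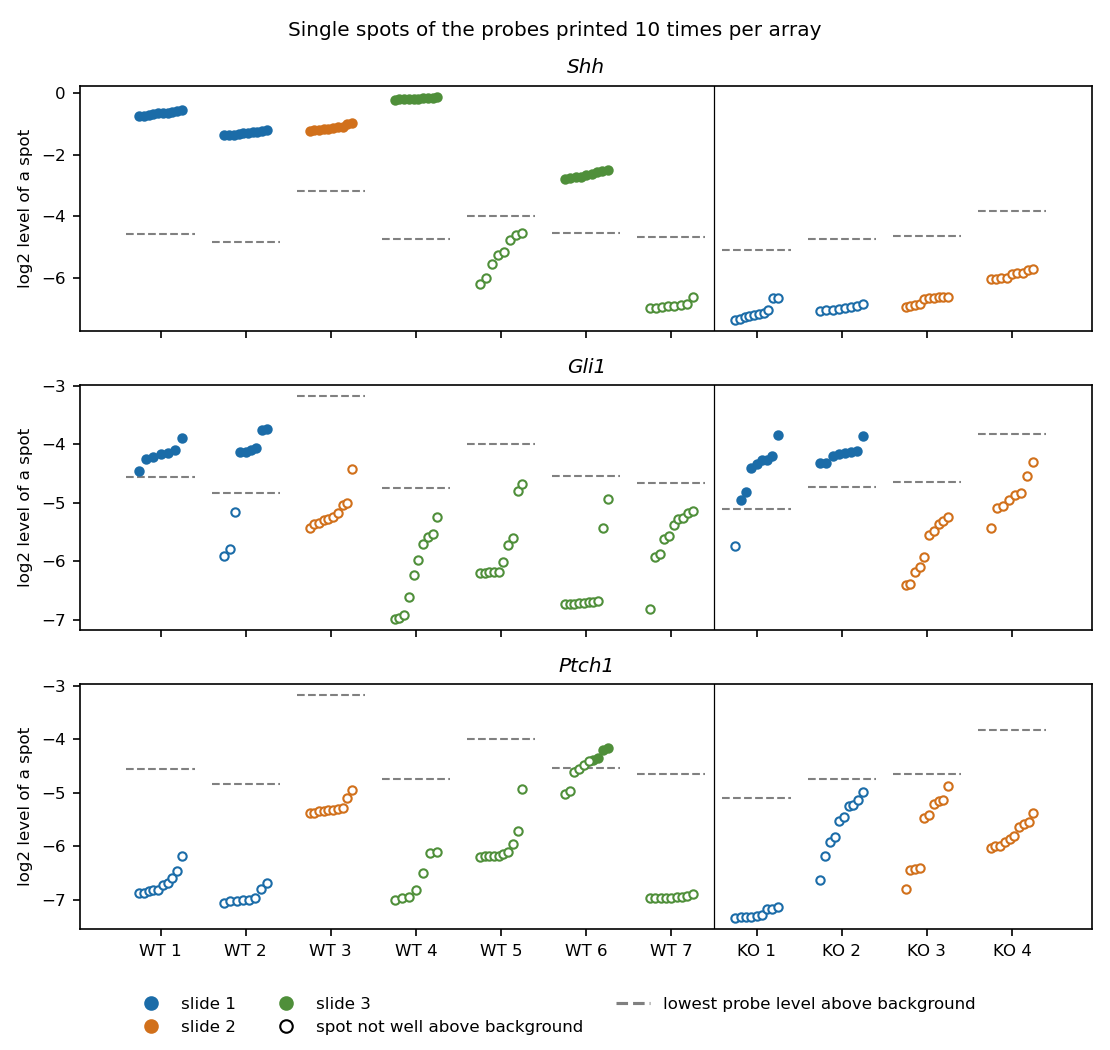
Each of the 10 spots per array of the Shh, Gli1 and Ptch1 probes, as log2 level, hollow where the spot was not well above background; the dashed line is the lowest level of any probe well above background on that array. Outlier spots are not drawn. Shh spots are filled on wild-type arrays 1 to 4 and 6 and hollow on all 4 knockout arrays, Gli1 spots are filled only on slide 1, in both genotypes, and Ptch1 has 4 filled spots, all on wild-type array 6.

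Ptch1, the receptor that holds Smo in check and a direct hedgehog target, was not well above background on any of the 11 arrays. Its level ran from -6.95 to -4.52, with a median of -6.64, in the wild-type arrays and was -7.26, -5.61, -5.74 and -5.78 in the knockout arrays. Of its 10 spots per array, 4 were above background on wild-type array 6 and 1, an outlier spot, on knockout array 1, which makes 4 of 70 and 1 of 40. Values at background have no order, so no difference, bound or test is given for Ptch1.

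Smo, the membrane protein that passes the signal on once Ptch1 is occupied, was well above background on every array. Its levels ran from 4.18 to 5.49, with a median of 5.05, in the wild-type arrays and were 4.37, 4.62, 5.25 and 4.71 in the knockout arrays, so the genotypes overlapped throughout. The fitted difference was 0.24 ± 0.34 (SE; 95% interval -0.53 to 1.01; limma adjusted p 0.736). It was -0.13 within slide 1, which is also the value without wild-type array 3, and 0.80 within slide 2, so its sign depended on array 3. The second Smo probe was above background on 3 of 11 arrays and was not tested. Its levels lay between -5.86 and -4.37 in 6 wild-type arrays, the value of array 6 being left out as an outlier spot, and between -5.14 and -4.55 in the knockout arrays.

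Gli1, the transcription factor whose own transcript reports hedgehog reception, was detected on slide 1 only, in both genotypes. Wild-type levels were -4.17 and -4.53 on slide 1, where 8 and 7 of 10 spots were above background, and knockout levels there were -4.53 and -4.16, with 8 and 9 spots. On slides 2 and 3 none of the 10 spots of any array was above background, and levels were -6.40 to -5.15 in 5 wild-type arrays and -5.79 and -4.88 in 2 knockout arrays. The comparison at measured levels is therefore that of slide 1, where the difference was 0.0069. The fitted difference was -0.07 ± 0.36 (SE; 95% interval -0.87 to 0.73; limma adjusted p 0.938), and its sign turned under several alternatives, among them leaving out wild-type array 3, where it was 0.0069. Slide and detection moved together for Gli1, and which property of the slides goes with it was not tested.

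Hhip, a membrane protein that binds and sequesters hedgehog ligands, was well above background on all 11 arrays. Levels in the knockout arrays were close to each other, at -3.14, -3.10, -3.19 and -3.53. Those in the wild-type arrays spread from -3.31 in array 4 to 2.77 in array 7, with a median of -0.07. Array 4 lay within the knockout range and the other 6 wild-type arrays above it, so the genotypes overlapped through array 4. The SD was 2.09 (n = 7) against 0.20 (n = 4). The fitted difference was -2.18 ± 1.22 (SE; 95% interval -4.91 to 0.54; limma adjusted p 0.366), -2.62 within slide 1 and -1.53 within slide 2. The second Hhip probe was above background on wild-type array 1 alone, at -3.17. It was not tested, and its bound lies at 0.712-fold over all arrays and at 1.00-fold within slides 1 and 2, so no fold change is given.

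Hhip and Shh did not rank the wild-type arrays alike. Array 4 had the highest Shh level and the lowest Hhip level of the 7, while array 7, where Shh was at background, had the highest Hhip level. The r between the genes over the wild-type arrays was -0.73, with Shh at background in 2 of them. In the knockout arrays both were low, and over all 11 arrays r was 0.12. Of all lists, Hhip had its highest r over the wild-type arrays, 0.86, with the mean of 26 other hedgehog pathway genes. With 9 hedgehog target genes it was 0.77. Hhip also went with cell type lists that were high in wild-type arrays 5 to 7. Its r over the wild-type arrays was 0.84 for the 5 Schwann cell precursor markers, 0.81 for capsule and stroma and 0.75 for chromaffin markers. The chromaffin list was low in the knockout arrays, at -2.28 to -0.05, against -0.14 to 3.44 in the wild-type arrays, and Hhip and this list had an r of 0.85 over 11 arrays. The part of these other cell types in the Hhip levels was not tested.

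**Figure D3:**
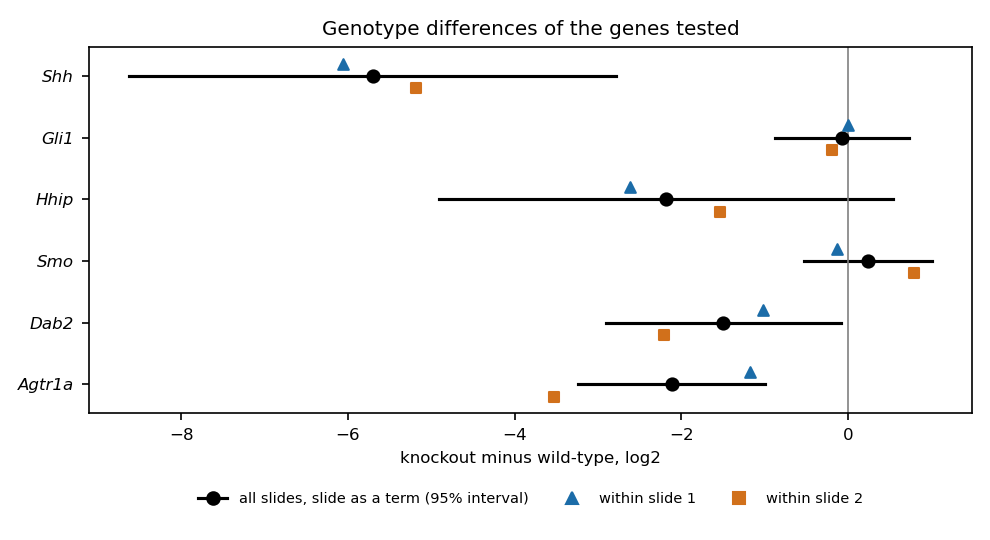
Fitted differences between genotypes, knockout minus wild-type in log2 units, of the 6 genes tested, with 95% intervals as bars, and the differences within slide 1 (triangles) and within slide 2 (squares). Shh, Agtr1a and Dab2 have intervals below 0, that of Shh from knockout signals at background, Hhip, Smo and Gli1 have intervals that hold 0, and for Agtr1a the within-slide values, -1.17 and -3.53, lie farthest apart relative to the interval.

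The other genes of the hedgehog pathway showed no common direction. Of 30 genes listed, 29 were on the array and 26 were tested, and 0 passed in either direction. Of all genes tested 0.834% passed, so for this and the other lists a count of 0 is near that share. Their median difference was 0.18, with 14 above and 12 below 0, and dropping wild-type array 3 or 2 turned it to -0.04 or -0.03. Sufu, the cytoplasmic inhibitor of Gli factors, had -1.32 ± 0.52 (SE; limma adjusted p 0.226), and Kif3a, a motor subunit needed to build primary cilia, had 1.00 ± 0.39 with the same adjusted p. Gli2, the main activating Gli factor, had 2.15 ± 0.85 (adjusted p 0.231), but on slides 1 and 2 its wild-type levels, -5.67 to -4.88, were all at background. That value is thus no estimate of size, and the bound within slides 1 and 2 was 1.97-fold higher in knockout. On slide 3, wild-type arrays 5 to 7 read -1.47, -2.96 and -1.53, well above background. Knockout levels were -4.36 to -2.62, the lowest not well above background, so the genotypes overlapped. Ift172, a ciliary transport protein, had 1.70 ± 0.78, which rested on wild-type array 3 at -5.10 and was -0.0767 without it.

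None of the tested genes on a list of hedgehog targets passed, where 0.834% of all genes tested did. Of 12 target genes listed beside Ptch1, Gli1 and Hhip, 9 were tested, 0 passed in either direction, and the median was -0.28, or 0.03 with wild-type array 3 dropped and -0.75 with array 2 dropped. The forkhead factor Foxf1 had -1.35 ± 0.53 (SE; limma adjusted p 0.227) and was above background only on the 4 arrays of slide 1. Its difference within that slide, which is also the value without wild-type array 3, was -0.66. Osr1, a transcription factor of mesoderm, had 1.02 ± 0.58 (adjusted p 0.377), and the growth regulator Mycn had -0.98 ± 0.63 (adjusted p 0.430), or -0.29 without wild-type array 3. None of these 3 differences can be told from the spread between arrays by this test.

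Dab2, an endocytic adaptor protein long used as a marker of glomerulosa cells, was well above background on all arrays with its brighter probe. Levels were 4.30, 4.51, 5.88 and 5.42 in wild-type arrays 1 to 4, 3.19, 3.20 and 2.75 in wild-type arrays 5 to 7, and 3.17, 3.61, 3.27 and 4.07 in the knockout arrays. Wild-type arrays 1 to 4 all lay above the 4 knockout arrays, and arrays 5 to 7 lay within or below them. The fitted difference was -1.49 ± 0.63 (SE; 95% interval -2.90 to -0.08; limma adjusted p 0.251), -1.01 within slide 1, -2.21 within slide 2 and -0.65 with no slide term. The second Dab2 probe gave -1.81 ± 1.17 (SE) in the fit over all probes, with an adjusted p of 0.448. With it, wild-type arrays 1 to 5, at -2.05 to -1.04, lay above the knockout arrays, at -3.79 to -3.11, while arrays 6 and 7 were not above background. The probes thus differed on array 5, which lay within the knockout range with the brighter probe.

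Dab2 and Shh followed similar patterns, with an r of 0.77 over 11 arrays and of 0.82 over the wild-type arrays. Dab2 followed the zona glomerulosa list, at an r of 0.82 over 11 arrays. It also followed the list of the zona fasciculata, another cortical zone, at 0.75 and the adrenocortical list at 0.73. Dab2 ran opposite to capsule and stroma markers, at -0.88. It also ran opposite to the mean of the other hedgehog pathway genes, with an r of -0.87. The gene most like Dab2, of 13737 named genes compared over the 11 arrays, was the mitochondrial chaperone gene Dnajc15, with an r of 0.98, followed by Gadd45gip1 and Mrpl49, which encode proteins of the mitochondrial ribosome, at 0.96 each. Of 12 genes for cargo receptors and endocytic partners of Dab2, all 12 were tested and 0 passed in either direction, against 0.834% of all genes. Their median difference was 0.17, which was -0.09 with normexp and, when wild-type array 1 or knockout array 4 was dropped, -0.0026 or 0.03. The lipoprotein receptor Lrp1 had the smallest p of these, with a difference of 2.41 ± 0.67 (SE; limma adjusted p 0.122). The Lrp1 levels did not overlap, at -0.61 to 3.19 in wild-type and 3.29 to 3.96 in knockout arrays. Its difference was 1.19 without wild-type array 3, which held the lowest level.

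Agtr1a, the main angiotensin II receptor of the mouse adrenal, was lower in every knockout array than in any wild-type array with its brighter probe. Levels ran from 5.24 to 7.90, with a median of 6.22, in the wild-type arrays and were 3.78, 4.72, 4.14 and 4.59 in the knockout arrays. Wild-type array 1 was the lowest of its group and knockout array 2 the highest of its own, and 3.24% of all genes tested were separated in this direction. The fitted difference was -2.12 ± 0.50 (SE; 95% interval -3.24 to -0.99; limma adjusted p 0.0888), -1.17 within slide 1 and -3.53 within slide 2. The larger value of slide 2 comes with its only wild-type array, array 3, which held the highest level of all, and without that array the adjusted p was 0.683. With this brighter probe Agtr1a, unlike Shh and the brighter Dab2 probe, was not low in wild-type arrays 5 to 7, at 6.54, 6.01 and 6.22. With no slide term the difference was -1.98 and passed at an adjusted p of 0.0436.

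The second Agtr1a probe did not show this separation. Its levels were -3.78 to -0.28, with a median of -2.97, in the wild-type arrays, array 3 being not well above background, and -2.73, -1.90, -2.88 and -2.03 in the knockout arrays. In the fit over all probes its difference was -0.49 ± 0.82 (SE; adjusted p 0.788), -1.16 within slide 1 and 0.51 within slide 2. Within slide 1 both probes differed by similar amounts, -1.17 and -1.16. In wild-type arrays 5 to 7, however, the second probe read -3.13, -3.78 and -3.57, well above background. These levels lay below every knockout array, where those of the brighter probe lay above. In wild-type arrays 1, 2 and 4 the second probe read -1.28, -1.02 and -0.28. Which transcript parts the probes match was not tested.

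Levels of the brighter Agtr1a probe were lowest where macrophage markers were highest. The r with the mean level of 13 macrophage genes was -0.94 over 11 arrays and -0.80 over the wild-type arrays. That mean was 3.07 to 3.65 in the knockout arrays and -1.04 to 1.60 in the wild-type arrays, and 12 of the 13 genes did not overlap between genotypes, where 4.12% of all genes tested were separated in this direction. Spi1, the transcription factor that defines the lineage, was above background on 0 wild-type and 4 knockout arrays and so met the filter of the test only through the knockout arrays. Its level in the knockout arrays was higher by 3.06-fold or more over all arrays and by 2.63-fold or more within slides 1 and 2, with a limma adjusted p of 0.0427, a call lost in 15 of 27 alternatives, among them no filter on dim probes (adjusted p 0.0511), normexp, with a difference of 0.36 (adjusted p 0.719), and leaving out any single knockout array or any of wild-type arrays 1, 2, 3, 5 and 7, with an adjusted p of 0.214 without wild-type array 3. In this direction 0.603% of all genes passed. Spi1 was the 1 macrophage gene past the threshold, and the signalling adaptor Tyrobp followed with 4.54 ± 0.94 (SE; adjusted p 0.0651), or 2.54 (adjusted p 0.433) without wild-type array 3. The genes most like Agtr1a were the cadherin Fat1, the translation factor Eif1ax and the mitochondrial ribosomal gene Mrpl44, with an r of 0.98, 0.97 and 0.97 over the 11 arrays. Over the wild-type arrays the r of Agtr1a with the endothelial markers, -0.79, was near that with the macrophage list, and over 11 arrays it was -0.46. The r over 11 arrays with the macrophage list also holds the difference of both between genotypes. The part of macrophage RNA in the Agtr1a level was not tested.

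Agtr1b, the second angiotensin II type 1 receptor of rodents, was above background on wild-type arrays 1, 2 and 4 alone, at -4.15, -4.67 and -4.48. On the other 4 wild-type arrays it read -6.95 to -5.32 and on the knockout arrays -5.42, -5.26, -4.95 and -6.00, none of them well above background. It did not reach the 4 arrays required for the test, and its bound lies under 1-fold, so no fold change is given. Agtr1a and Agtr1b are close paralogs, and whether RNA of Agtr1a binds the Agtr1b probe was not tested.

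**Figure D4:**
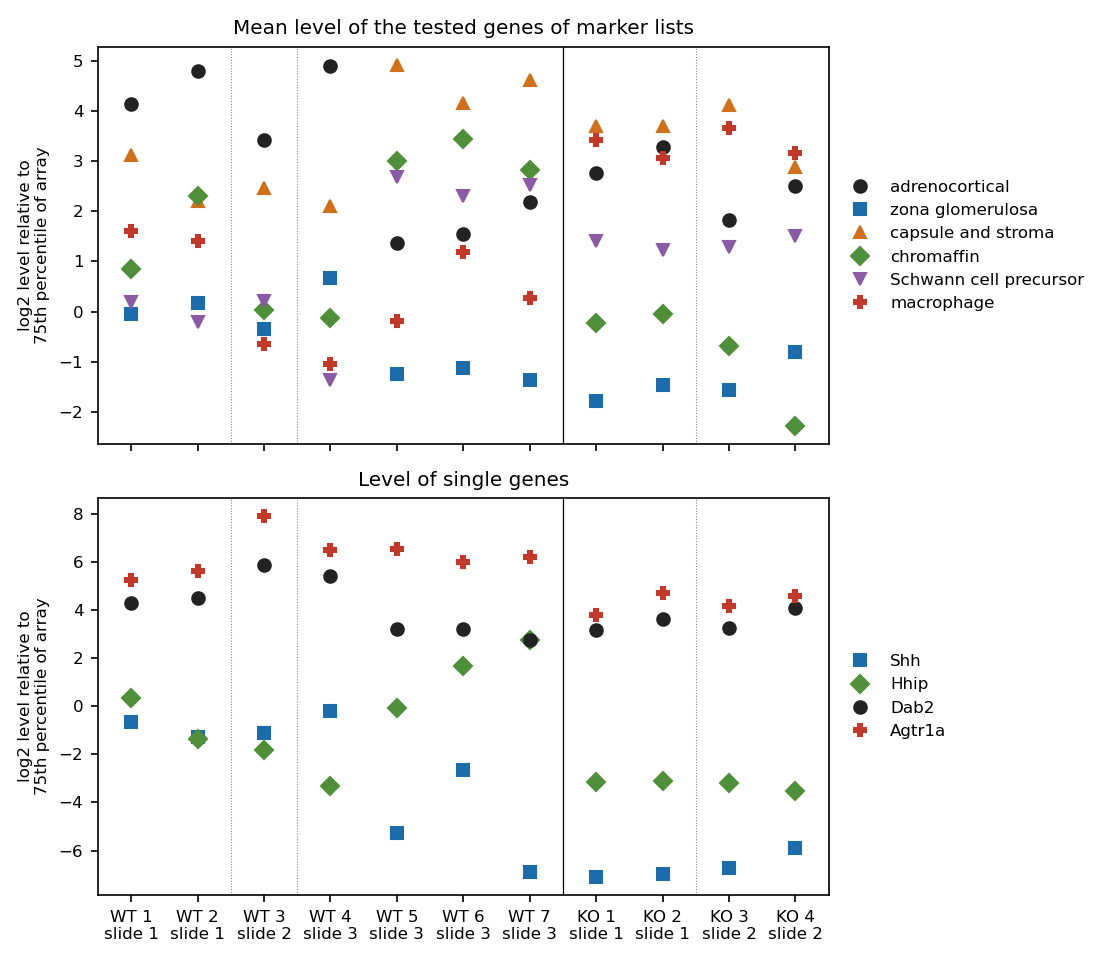
Top, mean log2 level of the tested genes of 6 marker lists on each array, with wild-type arrays left and knockout arrays right of the solid line and dotted lines between slides. Bottom, the levels of the brightest probes of Shh, Hhip, Dab2 and Agtr1a on the same arrays. Shh and Dab2 are low in wild-type arrays 5 to 7 (except Shh in array 6, at -2.65), where adrenocortical markers are low. Agtr1a is low in the 4 knockout arrays, where macrophage markers are highest.

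Other genes of the zona glomerulosa had fitted differences mostly below 0. Of 17 genes listed, 15 were tested, 2 fell past the threshold, 0 rose, and 13 had fitted differences below 0, with a median of -1.09 against -0.16 for all genes, or -0.63 within slide 2. In this direction 0.231% of all genes passed. Cacna1d, a voltage-gated calcium channel of aldosterone-producing cells, fell by 2.78 ± 0.42 (SE; limma adjusted p 0.0261), with levels of -2.25 to 0.49 in wild-type and -4.42 to -2.99 in knockout arrays. Axin2, a negative regulator and target of Wnt signalling, fell by 2.86 ± 0.44 (adjusted p 0.0262), with levels of -0.54 to 1.42 and -2.67 to -2.07. Neither gene overlapped between genotypes, and wild-type arrays 5 to 7 lay within the range of the other wild-type arrays for both, at -1.48 to -0.97 for Cacna1d and -0.16 to 0.49 for Axin2. The Cacna1d call was lost in 10 and the Axin2 call in 11 of 28 alternatives. Both were lost without wild-type arrays 1 or 3 and without knockout arrays 1, 3 or 4, with adjusted p of 0.214 and 0.227 without wild-type array 3, and Cacna1d also without wild-type array 2 and Axin2 without knockout array 2. Sex as a further term ended both calls too, at adjusted p of 0.105 for Cacna1d and 0.0945 for Axin2. All knockout mice were male and the only wild-type mouse of slide 2 was female.

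Vsnl1, a calcium sensor of glomerulosa cells, had -3.36 ± 0.79 (SE; limma adjusted p 0.0876), or -2.24 with no slide term. Wild-type arrays 5 to 7, at -3.75, -4.01 and -3.32, lay within the knockout range of -5.47 to -3.20, so the genotypes overlapped. Knockout arrays 2 and 3 were not well above background. Lef1, a Wnt-responsive transcription factor, was above background on 5 wild-type and 0 knockout arrays, and entered the test only through the former (adjusted p 0.227). It was at least 1.60-fold lower in the knockout arrays over all arrays and at least 3.15-fold lower within slides 1 and 2. Its levels were -3.24 to -2.13 in wild-type arrays 1 to 5, and its signals on arrays 6 and 7 were at background. The 8 tested genes of the zona fasciculata, the glucocorticoid-producing zone, had a median of -1.33, or -0.42 with no slide term, all 8 below 0 and 0 past the threshold. Hsd3b1, a steroid dehydrogenase, had -2.32 ± 0.78 (adjusted p 0.174), and Mrap, the partner of the ACTH receptor, had -1.65 ± 0.77 (adjusted p 0.291). With no slide term they had -0.98 and -0.92. The 9 adrenocortical markers also all lay below 0, with a median of -1.28 and 0 past the threshold, and this median was -0.33 with no slide term and -0.21 within slide 2. No test here sets the glomerulosa genes apart from these other cortical genes.

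The angiotensin system around Agtr1a showed differences in both directions. Of 16 genes listed, 14 were tested and 0 passed in either direction, against 0.834% of all genes. Their median was -0.08, which was 0.10 without wild-type array 3. Enpep, an aminopeptidase that degrades angiotensin II, had 2.04 ± 0.45 (SE; limma adjusted p 0.0730) with levels that did not overlap, -2.30 to -0.25 in wild-type and -0.13 to 0.96 in knockout arrays. The precursor Agt had 2.28 ± 0.78 (adjusted p 0.180), and the renin gene Ren1 had -1.79 ± 1.06 (adjusted p 0.391), or -0.98 without wild-type array 3. Plcb1, a phospholipase downstream of Gq-coupled receptors, had -3.78 ± 0.85 (adjusted p 0.0780), or -1.92 with no slide term. Its wild-type levels spread from -3.14 to 4.37, the highest in array 3, so the genotypes overlapped.

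**Figure D5:**
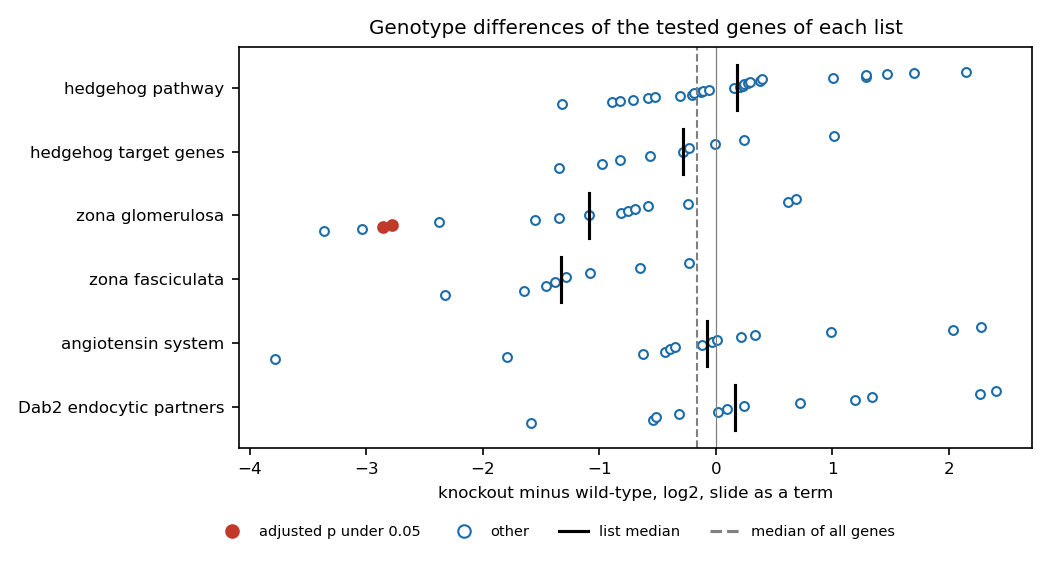
Fitted differences, knockout minus wild-type in log2 units, of the tested genes of the 6 pathway lists, 1 circle per gene, filled where the adjusted p was under 0.05; black bars are list medians and the dashed line is the median of all genes, -0.16. The 2 filled points, Cacna1d and Axin2, are in the zona glomerulosa list, whose median is -1.09, while the hedgehog pathway is centred at 0.18.

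The marker lists of other cells give the context of these levels. Beside the 13 macrophage genes, all of them above 0 with a median of 2.69, the 15 capsule and stroma genes had a median difference of 1.12, 12 above 0 and 0 past the threshold, with Acta2, smooth muscle actin, at 2.10 ± 0.48 (SE; limma adjusted p 0.0798), or 0.39 with no slide term. Mean capsule and stroma levels were 2.89 to 4.12 in the knockout arrays, 2.11 to 3.13 in wild-type arrays 1 to 4 and 4.17 to 4.92 in wild-type arrays 5 to 7. Chromaffin markers had a median of -1.22, Schwann cell precursor markers 1.12, endothelial markers 0.68 and kidney and liver markers 0.90, each with 0 genes past the threshold. These medians moved with single arrays and with the slide term. Dropping wild-type array 3 brought the endothelial median to 0.12. That of kidney and liver had no stable sign, being -0.55 with wild-type array 1 dropped, 2.73 with array 3 dropped and -1.71 on slide 2. With no slide term the capsule and stroma median was 0.37, that of Schwann cell precursors 0.27 and that of chromaffin cells -2.33, and the macrophage median was 4.09 on slide 2. Pnmt, the enzyme that makes adrenaline, had -5.54 ± 1.44 (adjusted p 0.107) and did not overlap between genotypes. Gli1 and Ptch1, known from the capsule, were at background on most spots of wild-type arrays 5 to 7, where the stromal markers were highest. These arrays lie on slide 3, where no Gli1 spot of any array was above background, including array 4 with its low stromal level of 2.11. The part of stromal cells in the Gli1 and Ptch1 signals was not tested.

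The genes whose levels over the 11 arrays were most like those of the other members were the following. For Shh they were the calcium-binding protein gene Caln1, Ctxn3 and the aldo-keto reductase gene Akr1cl, with an r of 0.96, 0.96 and 0.95, and their differences were -3.96, -4.12 and -2.96. None of these 3 passed, with limma adjusted p of 0.0948, 0.103 and 0.0957. For Hhip they were Ylpm1 at 0.97, Adgra1 at 0.95 and Map3k6 at 0.95. For Gli1, mostly at background values, they were Sfrp5, Serpina3j and Rbbp8nl at 0.97, 0.96 and 0.96, and for Smo they were Pitpna, Numa1 and Wt1 at 0.91, 0.90 and 0.90. With 13737 genes compared over 11 arrays that share scaling, high values of r occur for many pairs, and they are given as descriptions.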

How the data were processed

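The arrays, whole-genome Agilent mouse designs with 1 array per mouse, were grouped by the genotype in the labels. Each deposited scanner file holds the intensity of each spot after the background subtraction of Agilent Feature Extraction, version 10.1.1.1 for slides 1 and 2 and 10.5.1.1 for slide 3 per the file headers, although 10.5.1.1 alone stands in the submitters' processing notes. The authors' deposited series table holds log2 values, with column medians from -0.166 to 0.902. They were compared with levels computed as here but with outlier spots kept, after centring each probe on its median. For 99.8% of probes on each array the 2 lay within 0.01 of each other. The members and lists were chosen with earlier results of these data known.

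Of 45018 spots per array, 43379 were not controls; 77 to 164 outlier spots per array were left out and 0 were saturated. Spots of a probe were averaged as log2 signal, and the 75th percentile over the 41174 probes was subtracted. A probe counts as well above background where at least a share of 0.5 of its spots has the deposited flag. Accessions in the files named 25377 probes through a RefSeq table (GRCm38.p6), and 15797 stayed unnamed. The headers name mm8 for slide 1 and mm9 for slides 2 and 3 as the grid's build, and probe positions were not used. A gene's probe with the highest mean was tested if it was well above background on at least 4 arrays.

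Tests were two-sided, by limma 3.58.1 in R 4.3.3 (lmFit and eBayes on slide and genotype, with 7 degrees of freedom left for the spread), with Benjamini-Hochberg adjustment over all 20741 genes and unnamed probes; other probes come from a fit over 25884 probes. The fit was tested on simulated data. Bounds compare the brighter group's mean with the lowest signal well above background on each array of the dimmer group. Named genes are Star, the members, up to 4 genes of each list with the smallest p, and for each tested member the 3 named genes with the highest r. Results for some genes of the lists are not reported here. Alternatives changed the slide term, the arrays used, weights, outlier spots, variance prior, sex term, replicate block, background, scaling, filter and probes, or took the series table. The normexp alternative (offset 50) used median spot signals, since the files have no mean signal column. Random blocks used statmod 1.5.0; Python 3.11.15 with pandas 2.3.3, numpy 2.4.6 and matplotlib 3.10.9 handled tables and figures.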

Additional observations from a re-analysis of the deposited data

Results flagged for a closer look

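Of the 24 groups of probe levels checked for a sample far from the others, 1 stood apart, where chance alone gives about 1 in 20. The Ptch1 level of knockout array 1, -7.26, stood apart from the other knockout arrays, -5.61, -5.74 and -5.78, with a gap of 0.901 of the group's range. None of the 4 values was well above background, so they have no order as transcript levels and the gap describes background signals. The 1 of 10 spots above background on that array was an outlier spot that does not enter the level.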

How the results depend on the processing

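The sign of the Shh, Agtr1a, Dab2 and Hhip differences was the same under every alternative run, 27 for Shh and 28 for each of the others, and the adjusted p of limma ran from 0.00256 to 0.547 for Shh, 0.0262 to 0.683 for Agtr1a, 0.0598 to 1.00 for Dab2 and 0.0521 to 0.963 for Hhip. Shh passed with normexp at -2.21 (0.0263), array weights at -5.99 (0.00256) and slides 1 and 2 only at -5.70 (0.00410); leaving out single arrays gave -6.05 to -5.46, past the threshold without wild-type array 4. Agtr1a passed with no slide term at -1.98 (0.0436), a random block at -2.03 (0.0427), normexp at -1.96 (0.0396), genes above background on all arrays at -2.12 (0.0411) and array weights at -1.51 (0.0262). Normexp also changes the floor of dim signals by its construction. Members past the threshold, 0 in the values reported, were 2 with normexp and array weights, 1 with no slide term, a random block, the replicate block, the stricter filter and slides 1 and 2 only, and 0 to 1 without single arrays. Gli1 turned to 0.56 with no slide term, 0.25 with a random block, 0.0069 within slide 1, 0.17 with the replicate block and 0.24 with quantile normalization, and ran from -0.21 to 0.0946 without single arrays. Smo turned to -0.19 with no slide term, -0.13 within slide 1 and -0.0968 with array weights, and ran from -0.13 to 0.48 without single arrays. Ift172 turned to -0.0767 within slide 1 and without wild-type array 3 (up to 2.32 without other arrays). The median of the hedgehog pathway list was -0.15 with normexp. Where no other reason is named, the cause was not tested.

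All genes past the threshold, 173, became 594 with no slide term, 469 with a random block, 28 with sex as a term, 624 with normexp, 92 with median scaling, 403 of the genes above background on all arrays, 1919 with array weights, 533 with slides 1 and 2 only, and 10 to 565 without single arrays, lowest without wild-type array 3 and highest without wild-type array 4. Within slide 1 and within slide 2 limma called 0 genes, with 3857 and 7489 at an unadjusted p under 0.05. Of the genes called, 72.3% were higher in the knockout arrays, a share that was 54.2% with array weights, 55.8% above background on all arrays, 62.1% without wild-type array 4, 89.3% with sex as a term and 95.8% without wild-type array 1. The median of all genes, -0.16, was 0.05 with no slide term and -0.29 with normexp. The replicate numbers were not treated as pairs in the main fit. Deviations of same-numbered arrays from their group means correlated at 0.183, 0.218, -0.00764 and 0.185. Not every array correlated best with its own number, and wild-type array 2 reached 0.224 with knockout array 1. Same-numbered arrays 1, 2 and 3 also share slides, and the deviations keep slide differences, so these values cannot decide whether the numbers mark pairs. With the replicate block, genes past the threshold were 177, Shh was -5.85 (adjusted p 0.0186), and Cacna1d and Axin2 missed the threshold at adjusted p of 0.0744 and 0.0656. Ptch1 and Agtr1b had no test under the filter, and all knockout arrays were male, so sex and genotype can be separated only through the wild-type arrays.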
